A study of Mus musculus with 4 samples.

Results

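The comparison described here set embryoid bodies grown in GSK-J4 against embryoid bodies grown in its inactive isomer GSK-J5 at the same dose of 1.88 µM. It rests on 2 of the 4 arrays of the series, 1 for each compound, and on 13314 of the 22180 genes that the arrays name. Embryoid bodies are clumps of embryonic stem cells at the start of differentiation, and the cells were of the mouse line R1. Per the labels, cells freed of feeders were kept for 18 h in Petri dishes without LIF, the cytokine that holds them undifferentiated, in EB medium alone, in EB medium with DMSO, with GSK-J5 or with GSK-J4. The labels call GSK-J4 a specific inhibitor of KDM6 and place GSK-J5 among the vehicle controls. The embryoid bodies were dispersed with trypsin and their total RNA was put on Affymetrix arrays. The line is 1 clone, and the labels name no separate cultures, so nothing in the design measures how far cultures of 1 treatment differ.

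KDM6A and KDM6B remove methyl groups from lysine 27 of histone H3, the repressive mark that Polycomb complex PRC2 places on developmental genes. Pluripotent cells hold many developmental regulators under this mark together with the active mark on lysine 4, a state called bivalent, from which they can be turned on as cells leave pluripotency. The transcription factors p53 and ATF4 run separate stress programmes: p53 answers DNA damage and related stresses with cell cycle arrest, repair and apoptosis genes, and ATF4 answers phosphorylation of the translation factor eIF2, as in amino acid shortage, with transport, synthesis and CHOP genes.

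Between GSK-J4 and GSK-J5, 16 of 17 counted genes of the ATF4-CHOP circuit and 24 of 60 p53 targets and regulators were higher in GSK-J4 by at least 1.5-fold, beside 3.28% of all genes counted, and 0 were lower. In the other direction, 10 of 26 formative and epiblast genes and 9 of 48 bivalent developmental genes were lower, beside 1.39% of all genes, and 0 higher. Most members of those lists and of the p53 lists thus did not pass. All of these lists were drawn up with earlier results of these data known. Niban1 was placed on the ATF4-CHOP list with its value known, and without it 15 of 16 genes were higher. Vldlr, of the same list, was counted through its GSK-J4 value. Vrtn, Bcl11a and Rxrg were likewise placed on the bivalent list, and without them 6 of 45 genes were lower. B4galnt2, a glycosyltransferase that builds the Sda carbohydrate antigen, read 6.43 in medium, 6.41 in DMSO, 6.33 in GSK-J5 and 9.62 in GSK-J4, all on the log2 scale. The GSK-J4 array was the only high one, 9.78-fold over GSK-J5, but all 3 controls lay under the filter level of 6.585 set for genes to be counted, so the gene was counted through its GSK-J4 value and the size is not exact. At the other end Lef1, a DNA-binding partner of β-catenin in WNT signalling, read 9.94 in medium, 9.90 in DMSO, 9.84 in GSK-J5 and 8.19 in GSK-J4, 3.14-fold below GSK-J5. With 1 array for each treatment there is no replicate check and no p-value, and a difference of culture or array that belongs to the single GSK-J4 array cannot be told apart from the compound. In bulk RNA of this kind, fewer cells of a type and less RNA per cell cannot be told apart either.

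A gene was counted as higher or lower when the arrays of GSK-J4 and GSK-J5 differed by at least 1.5-fold, which is 0.58 on the log2 scale. By this rule 437 genes (3.28% of those counted) were higher in GSK-J4 and 185 (1.39%) were lower, together 622 (4.67%). These shares are the background for each list count below. The same rule called 23 genes (0.173%) between GSK-J5 and DMSO, 25 (0.188%) between GSK-J5 and medium, and 21 (0.158%) between DMSO and medium. At 2-fold the count was 110 higher (0.826%) and 19 lower (0.143%), against 1 gene (0.00751%) between GSK-J5 and DMSO and 0 in the other pairs of controls. Of the called genes 70.3% were higher. That share depends on the scaling: it was 63.1% after a further quantile normalization, and 49.4% (316 higher, 324 lower) when each array was centred on its median over the genes counted, a choice made after the data were seen that shifts the median difference of all genes to -0.08.

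**Figure D1:**
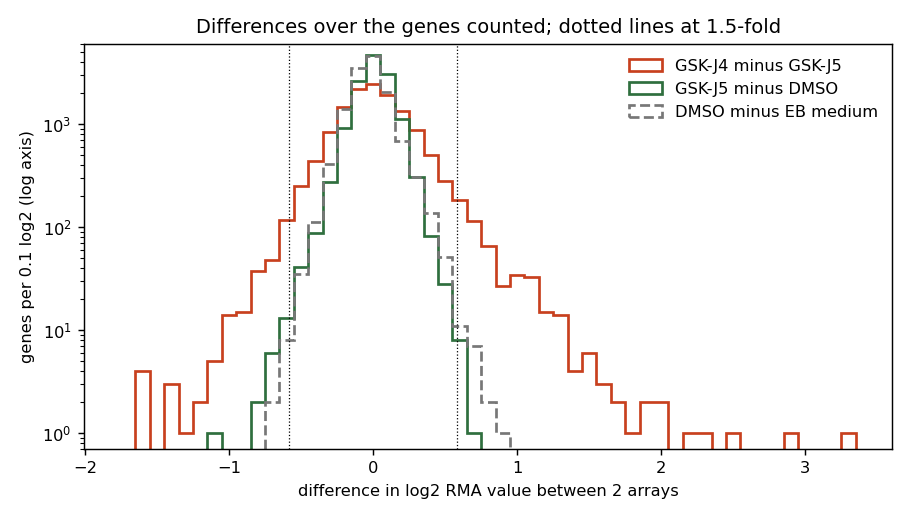
Number of genes (log axis) in bins of 0.1 by the difference in log2 value between 2 arrays, for GSK-J4 minus GSK-J5, GSK-J5 minus DMSO and DMSO minus medium, with dotted lines at 1.5-fold. The GSK-J4 line is wider on both sides (SD 0.289, against 0.133 for GSK-J5 minus DMSO) and reaches from -1.65 to 3.29.

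The central 95% of genes lay between -0.50 and 0.65 in GSK-J4 minus GSK-J5, and between -0.26 and 0.27 in GSK-J5 minus DMSO. The median difference was 0.00. All 437 higher genes also read above the medium and DMSO arrays, and 294 of them did so by 1.5-fold over the nearest control. Of the 185 lower genes, 182 read below all 3 controls and 112 by 1.5-fold. Over all 13314 genes counted, GSK-J4 was above all controls for 5063 and below them for 4729. The rule had already picked the called genes for their distance from GSK-J5, itself a control, so these counts are no separate check. The same holds below wherever GSK-J4 is said to lie outside the controls for genes picked by this difference. The median difference was 0.75 among the higher genes, whose 3 controls spanned a median of 0.17, and -0.70 among the lower genes, whose controls spanned 0.19. GSK-J5 lay under the filter level of 6.585 for 20 of the higher genes and GSK-J4 for 30 of the lower ones, so the sizes of those differences are not exact. At that level Arhgap20 was the last gene kept, with a mean of 6.585, and Gabrp the first left out, with 6.5825. Calls were not spread evenly over levels: when the genes were ordered by mean level and cut into 5 equal classes, 160 of 2665 (6.0%) in the class next to the dimmest were higher, against 26 of 2668 (0.975%) in the brightest class. Where a called gene had further probe sets above the filter level, 19 of 20 had the same sign and 9 also passed 1.5-fold.

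The labelled cell type was checked against its markers. The 10 pluripotency markers averaged 11.46 in medium, 11.47 in DMSO, 11.49 in GSK-J5 and 11.38 in GSK-J4, and 0 of them passed 1.5-fold. GSK-J4 lay below every control for 6 of them and above every control for 1. The 9 feeder fibroblast markers averaged between 6.31 and 6.36 in the controls and 6.14 in GSK-J4. Of these, 4 were above the filter level, and GSK-J4 was below every control for 6. The median of their levels was 6.39 in both GSK-J5 and GSK-J4, but the median of their differences was -0.25. Mesendoderm markers averaged 7.16 to 7.27 in the controls and 6.88 in GSK-J4, and primitive endoderm markers 6.79 to 6.86 and 6.69. Neuroectoderm markers averaged 7.78 to 7.91 in the controls and 7.56 in GSK-J4, and trophoblast markers 6.56 to 6.63 and 6.35. The mean of the 8 blood and endothelial markers went the other way, from 6.39 to 6.46 in the controls to 6.54 in GSK-J4. The median of their levels did not, at 6.555 to 6.65 in the controls and 6.41 in GSK-J4. The median of their differences from GSK-J5 was 0.07, and 3 of these markers were above the filter level. The part of these shifts in the results below was not tested.

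Among the genes of the ATF4-CHOP circuit, 16 of the 17 counted were higher in GSK-J4 and 0 were lower, with a median difference of 1.22, beside 0.00 over all genes counted. Vldlr, with a control mean under the filter level, was counted through its GSK-J4 value. Without Niban1, which joined the list with its value known, the median was 1.16 over 16 genes. The other members were also chosen with earlier results of these data known, so the list is no independent check. Of the 25 highest named genes of the whole comparison, 7 were on this list. Niban1, a stress-induced gene that promotes survival, read 7.89, 7.84, 7.85 and 10.76 in medium, DMSO, GSK-J5 and GSK-J4. Nupr1, a small stress-induced chromatin protein, read 7.53, 7.41, 7.51 and 10.03 in the same order. For both genes the controls lay within 0.12 of each other and GSK-J4 far above, 7.52-fold and 5.74-fold over GSK-J5.

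Because the ATF4-CHOP genes differed together, their promoters were searched for the C/EBP-ATF response element, the composite site to which ATF4 binds with a C/EBP partner. It was spelled TGATGNAA and sought on both strands, from 250 bases before to 50 after each RefSeq start (GRCm38.p6). Of the 7 genes on this list and among the 25 highest, 4 hold a match, and these stretches are printed 5′ to 3′ on the gene's strand, with the match in capitals, to show where it lies. Nupr1 (chr7:126625471-126625720, minus strand) has it 110 bases before the start, and so does Atf3 (chr1:191183334-191183583, minus strand). Jdp2 (chr12:85599166-85599415, plus strand) has it 33 bases before 1 of its starts, and Trib3 (chr2:152344028-152344057, minus strand) 15 bases after the start, of which 30 bases are shown.

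Nupr1: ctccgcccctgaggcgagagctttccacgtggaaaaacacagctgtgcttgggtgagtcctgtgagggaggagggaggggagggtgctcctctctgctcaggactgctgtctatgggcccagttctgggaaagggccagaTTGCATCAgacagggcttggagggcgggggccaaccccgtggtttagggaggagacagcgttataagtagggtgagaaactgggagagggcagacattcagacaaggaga
Atf3: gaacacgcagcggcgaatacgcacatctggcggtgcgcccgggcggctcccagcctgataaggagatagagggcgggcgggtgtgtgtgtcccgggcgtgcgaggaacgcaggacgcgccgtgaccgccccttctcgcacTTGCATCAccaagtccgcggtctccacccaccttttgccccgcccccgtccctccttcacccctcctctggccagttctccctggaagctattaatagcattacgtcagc
Jdp2: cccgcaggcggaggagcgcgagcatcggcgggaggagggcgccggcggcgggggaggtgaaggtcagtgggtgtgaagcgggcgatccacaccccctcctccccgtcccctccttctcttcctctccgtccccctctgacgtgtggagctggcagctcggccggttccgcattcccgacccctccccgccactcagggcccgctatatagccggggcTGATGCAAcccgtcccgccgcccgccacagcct
Trib3: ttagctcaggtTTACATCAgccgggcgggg

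In Nupr1, Atf3 and Trib3 the match reads in reverse, as TTGCATCA in the first pair and TTACATCA in Trib3, and in Jdp2 it reads forward as TGATGCAA. No match to these letters lay in the windows of Niban1, Ddit4 and Ddit3. Over all 32851 promoter windows 3.97% held a match. By gene it was 37.5% (6 of 16) for the ATF4-CHOP list, 7.33% (25 of 341) for genes higher in GSK-J4, 5.85% (19 of 325) for higher genes off that list, 2.33% (3 of 129) for lower genes, 3.92% (2 of 51) for the p53 lists and 2.55% (255 of 9986) for genes within 1.5-fold. The ATF4-CHOP list was drawn up from genes of this pathway, so its share does not bear on the arrays. The higher genes off that list still include amino acid enzymes and transporters. A match is a stretch of letters and not a measured binding site, and whether ATF4 acted on these genes was not tested.

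Trib3, a pseudokinase that dampens ATF4 and AKT signalling, read 8.40, 8.46, 8.70 and 10.72 in medium, DMSO, GSK-J5 and GSK-J4, 4.06-fold over GSK-J5. Ddit4, an inhibitor of mTORC1, read 9.96, 9.74, 9.93 and 11.80, and Ddit3, which encodes CHOP, read 7.88, 7.50, 8.20 and 9.96. The GSK-J4 array was the highest for all 3 genes and did not overlap the controls. Atf3, a stress-induced repressor of the same family, read 7.67, 7.47, 7.52 and 9.0. Its relative Jdp2, which represses AP-1 targets, read 7.26, 7.13, 7.49 and 8.95. GSK-J4 was above all controls for both, 2.79-fold and 2.75-fold over GSK-J5, although the controls of Jdp2 spanned 0.36 with GSK-J5 the highest. Atf4 itself, chosen here after its values were seen, read 9.32, 9.35, 9.28 and 9.91, which is 1.55-fold and among the smaller differences of the list. Eif4ebp1, a translation repressor, also named after its value was seen, was the only counted member under 1.5-fold (0.27).

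Some of these genes stood slightly higher in GSK-J5 than in DMSO as well. GSK-J5 lay above both other controls for 9 of the 17 genes (52.9%, against 29.7% of all genes counted) and above DMSO for 13 (76.5%, against 52.1%). The list's median was 0.10 against DMSO, where all genes had 0.01, but 0.02 against medium. Against DMSO the ephrin list and the amino acid and one-carbon enzyme list reached 0.11 and the BMP list 0.10. Against medium the ephrin list had -0.05, the enzyme list 0.09 and the BMP list 0.025. Ddit3 had the largest GSK-J5 minus DMSO difference, 0.70, which was also the highest of all 13314 genes, and was 1.76 higher again in GSK-J4. Chosen after their values were seen, Stc2, a secreted glycoprotein, read 8.45, 8.29, 8.78 and 10.00, and Vldlr, a lipoprotein receptor, 6.41, 6.33, 6.79 and 8.09. In both the order was DMSO, medium, GSK-J5 and GSK-J4, though the medium and DMSO arrays of Vldlr lay under the filter level. A difference of 0.58 in either direction occurred for 0.173% of genes between GSK-J5 and DMSO, and Ddit3 alone of the list passed it.

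**Figure D2:**
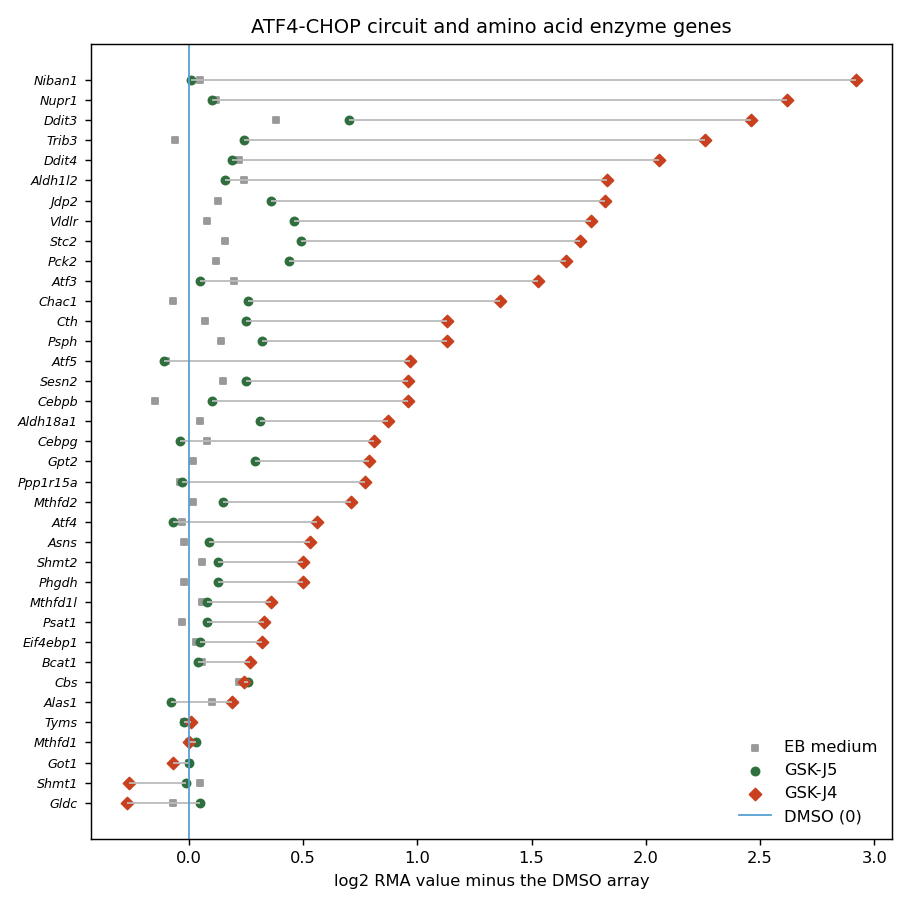
Log2 value minus the DMSO array for each counted gene of the ATF4-CHOP and amino acid enzyme lists, in medium (grey squares), GSK-J5 (green circles) and GSK-J4 (red diamonds), 1 array each. GSK-J4 is farthest right for all 17 ATF4-CHOP genes, beside 5063 of all 13314 genes counted. GSK-J5 lies right of DMSO for 13 of the 17.

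Enzymes of amino acid and one-carbon metabolism, many of them ATF4 targets, were higher in 4 of 20 cases and lower in 0, with a median of 0.33. Over all genes counted 3.28% were higher and 1.39% lower. Aldh1l2, a mitochondrial folate dehydrogenase, read 6.78, 6.54, 6.70 and 8.37 in medium, DMSO, GSK-J5 and GSK-J4. Pck2, the mitochondrial PEP carboxykinase, read 9.80, 9.68, 10.12 and 11.33. Both were highest in GSK-J4 without overlap, and Pck2 had its highest control in GSK-J5. Cth, which makes cysteine from cystathionine, differed by 0.88, and Psph, the last enzyme of serine synthesis, by 0.81. Asns, the asparagine synthetase often used as an ATF4 readout, was named after its values were seen and differed by 0.44, under the rule of size, from 12.16 in GSK-J5 to 12.60. Of the 20, 5 read below GSK-J5, with Gldc, which breaks down glycine and was picked out as the lowest, at -0.32.

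Among amino acid transporters 4 of 16 were higher, beside 3.28% of all genes counted, and 0 lower, with a median of 0.12. Slc1a4, a carrier of neutral amino acids, was the highest of them at 1.03, followed by Slc7a1, the main carrier of arginine and lysine, at 0.96. Slc1a5, the glutamine carrier, and Slc38a7, a lysosomal one, each differed by 0.68. The cystine carrier Slc7a11, named after its values were seen, at 5.49 in GSK-J5 and 7.27 in GSK-J4, was too dim to be counted. Of the cytosolic aminoacyl-tRNA synthetases, which charge tRNAs, only Cars passed (0.61, 1 of 19; 0.53 when arrays were centred on the genes counted), and the median was 0.14. Genes of the endoplasmic reticulum arm of the unfolded protein response differed less as a list, with a median of -0.04 and 2 of 23 higher: Sel1l (0.72, or 0.54 against medium) and Herpud1 (0.69), both of the system that returns misfolded proteins for degradation. The chaperone Hspa5, named after its value was seen, differed by -0.26.

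The 5 lists of p53 targets and regulators, together 60 genes counted, held 24 higher genes and 0 lower, with a median of 0.37. Over all genes counted 3.28% were higher. The cell cycle arrest list had 7 of 14 higher and a median of 0.64. Plk2, a polo-like kinase, read 8.56, 8.44, 8.52 and 10.40 in medium, DMSO, GSK-J5 and GSK-J4, and Btg2, an antiproliferative factor, 8.92, 8.77, 8.87 and 10.48. Cdkn1a, the p21 inhibitor of cyclin-dependent kinases, read 10.80, 10.75, 10.76 and 11.83. In each of these 3 genes the controls were tight and GSK-J4 lay apart, by 3.68-fold, 3.05-fold and 2.10-fold over GSK-J5. Phlda3, which restrains AKT, read 10.10, 10.05, 10.30 and 11.50, highest in GSK-J4 by 2.30-fold.

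The apoptosis list had 6 of 14 higher and a median of 0.46. Trp53inp1, a p53-induced nuclear protein, read 11.24, 11.25, 11.18 and 12.45, and Perp, a membrane protein of desmosomes and cell death, 9.37, 9.05, 9.08 and 10.33. Bbc3, which encodes the death activator PUMA, read 8.28, 7.88, 8.12 and 9.31. GSK-J4 was the highest array for all 3, by 2.41-fold, 2.38-fold and 2.28-fold. Apaf1, the scaffold of the apoptosome, differed by 1.03. By contrast Pmaip1, which encodes NOXA, differed by 0.07 and Siva1 by 0.01, both named after their values were seen, so the members of the list differed widely.

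Of the regulators that feed back on p53, 4 of 9 were higher, with a median of 0.39. Mdm2, its ubiquitin ligase, read 11.25, 11.19, 11.19 and 12.03, and its relative Mdm4, which masks the activation domain of p53, 11.02, 10.97, 10.97 and 11.92. Both lay clear of controls that spanned 0.06 and 0.05. Ccng1 (cyclin G1) differed by 0.70 and Trp73, a p53 family member, by 0.69, or 0.57 against DMSO. Metabolic and redox targets had 6 of 14 higher and a median of 0.52, led by Ephx1, an epoxide hydrolase (1.19), Cpt1c, a brain-type carnitine acyltransferase (1.08), and Lpin1, a phosphatidate phosphatase (1.03). Repair and nucleotide supply targets had 2 of 10 higher and a median of 0.17: Polk, a translesion polymerase (1.04), and Ercc5, a nuclease of excision repair (0.82). Among 40 further genes of damage signalling and repair 1 was higher, Prkdc, a kinase of end joining (0.64, or 0.55 against medium), and the median was -0.01.

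Of all 13314 genes counted, 60 were on the p53 lists and 72 on the ATF4 and amino acid lists. The 48 higher genes on either made up 11% of the 437 higher genes, and 389 higher genes were on neither. Several of the highest named genes were among those. Cd80, a costimulatory ligand for T cells, read 7.47, 7.18, 7.24 and 9.42 in medium, DMSO, GSK-J5 and GSK-J4, and Inhbe, the subunit of activin E, 6.16, 6.10, 6.28 and 8.30. Neat1, the long noncoding RNA of paraspeckles, read 8.54, 8.50, 8.28 and 10.02. All 3 were highest in GSK-J4 without overlap, but they were named for being among the highest differences. The controls of Inhbe lay under the filter level, so it was counted through its GSK-J4 value. Abcb1b, a multidrug efflux pump, differed by 1.53, as did Hhip, a decoy receptor for Hedgehog ligands, and Arhgef2, a microtubule-bound activator of RhoA, by 1.52. Apobec1, a cytidine deaminase, differed by 1.56 and Adm2, a peptide hormone, by 1.33.

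**Figure D3:**
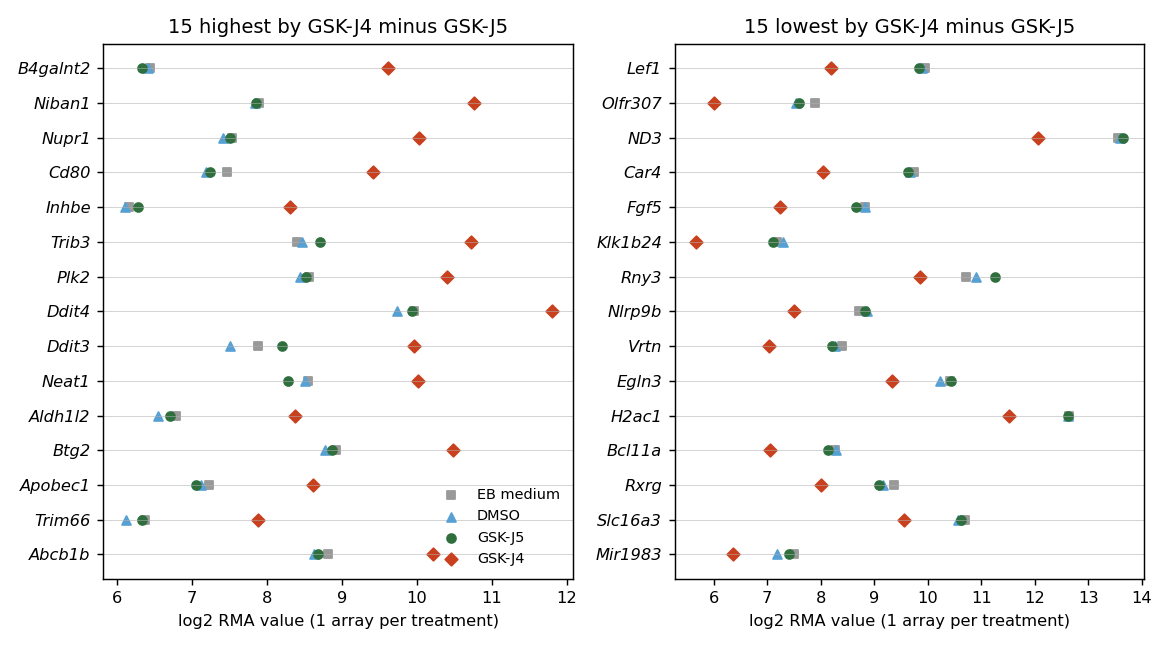
Log2 values on the 4 arrays for the 15 highest and 15 lowest named genes by GSK-J4 minus GSK-J5, with medium as grey squares, DMSO as blue triangles, GSK-J5 as green circles and GSK-J4 as red diamonds. In every row shown the GSK-J4 point lies outside the 3 controls, from B4galnt2 (9.62 against 6.33 to 6.43) to Lef1 (8.19 against 9.84 to 9.94). The rows were picked for their difference from GSK-J5.

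Formative and epiblast genes, which mark cells that leave naive pluripotency, were lower in 10 of 26 cases and higher in 0, with a median of -0.48. GSK-J4 was below all controls for 22 of them, beside 4729 of 13314 over all genes counted. Car4, a carbonic anhydrase anchored to the cell membrane, read 9.74, 9.67, 9.63 and 8.05 in medium, DMSO, GSK-J5 and GSK-J4. Fgf5, the growth factor that marks the epiblast, read 8.82, 8.83, 8.66 and 7.23. Fgf15, another growth factor of this family, read 11.55, 11.44, 11.49 and 10.54. In all 3 genes, as in Lef1, GSK-J4 was the single low array, 2.99-fold, 2.69-fold and 1.93-fold below GSK-J5. A second probe set of Fgf15, above the filter level, differed by -0.50, which is under the rule of size. Dnmt3b, a de novo DNA methyltransferase, differed by -0.87, from 12.17 to 11.30. The transcription factors Pou3f1 (-0.79) and Foxd3 (-0.78) were also lower. These and Nodal, a ligand of the TGF-β family that went the other way by 0.27, are named after their values were seen.

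Of 66 bivalent developmental regulators on the arrays, 48 were counted, and 9 of these were lower and 0 higher, with a median of -0.29. GSK-J4 was below all controls for 35 and above them for 5, beside 4729 and 5063 of all 13314 genes counted. Vrtn, Bcl11a and Rxrg were placed on this list with their values known, and without them 6 of 45 were lower and the median was -0.26. Its other members were likewise chosen with earlier results of these data known. Wt1, a zinc finger factor of kidney and gonad, read 8.88, 8.75, 8.63 and 7.67 in medium, DMSO, GSK-J5 and GSK-J4, and Rxrg, a retinoid X receptor, 9.36, 9.17, 9.08 and 8.0. Bcl11a, a repressor of blood and brain development, read 8.26, 8.28, 8.14 and 7.05. GSK-J4 was below the controls for all 3, but a second, dimmer probe set of Bcl11a read 5.21 in GSK-J5 and 5.29 in GSK-J4. Vrtn, which sets vertebral number, differed by -1.18, and Eomes, a T-box factor of the primitive streak, by -0.73. Tbx3, a T-box factor also active in naive cells, was picked out as the highest of the list, at 0.44, under the rule of size.

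Only 12 of 36 Hox genes were bright enough to be counted, and 1 of these, Hoxb1, was lower (7.32 in GSK-J5, 6.48 in GSK-J4, the latter under the filter level). The Hox median was -0.23 over the 12. Together the formative, bivalent and Hox lists held 82 of the 13314 genes counted. Of these 82, 18 were lower and 0 higher, and the 18 made up 9.73% of the 185 lower genes. Neuroectoderm genes had a median of -0.22 and primitive streak genes -0.11. The mean level of the feeder fibroblast markers moved the same way (6.33 in GSK-J5, 6.14 in GSK-J4), and the median of their differences was -0.25. The wider feeder list had a median of -0.24 over 10 counted genes. The part of the feeder markers was not tested.

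**Figure D4:**
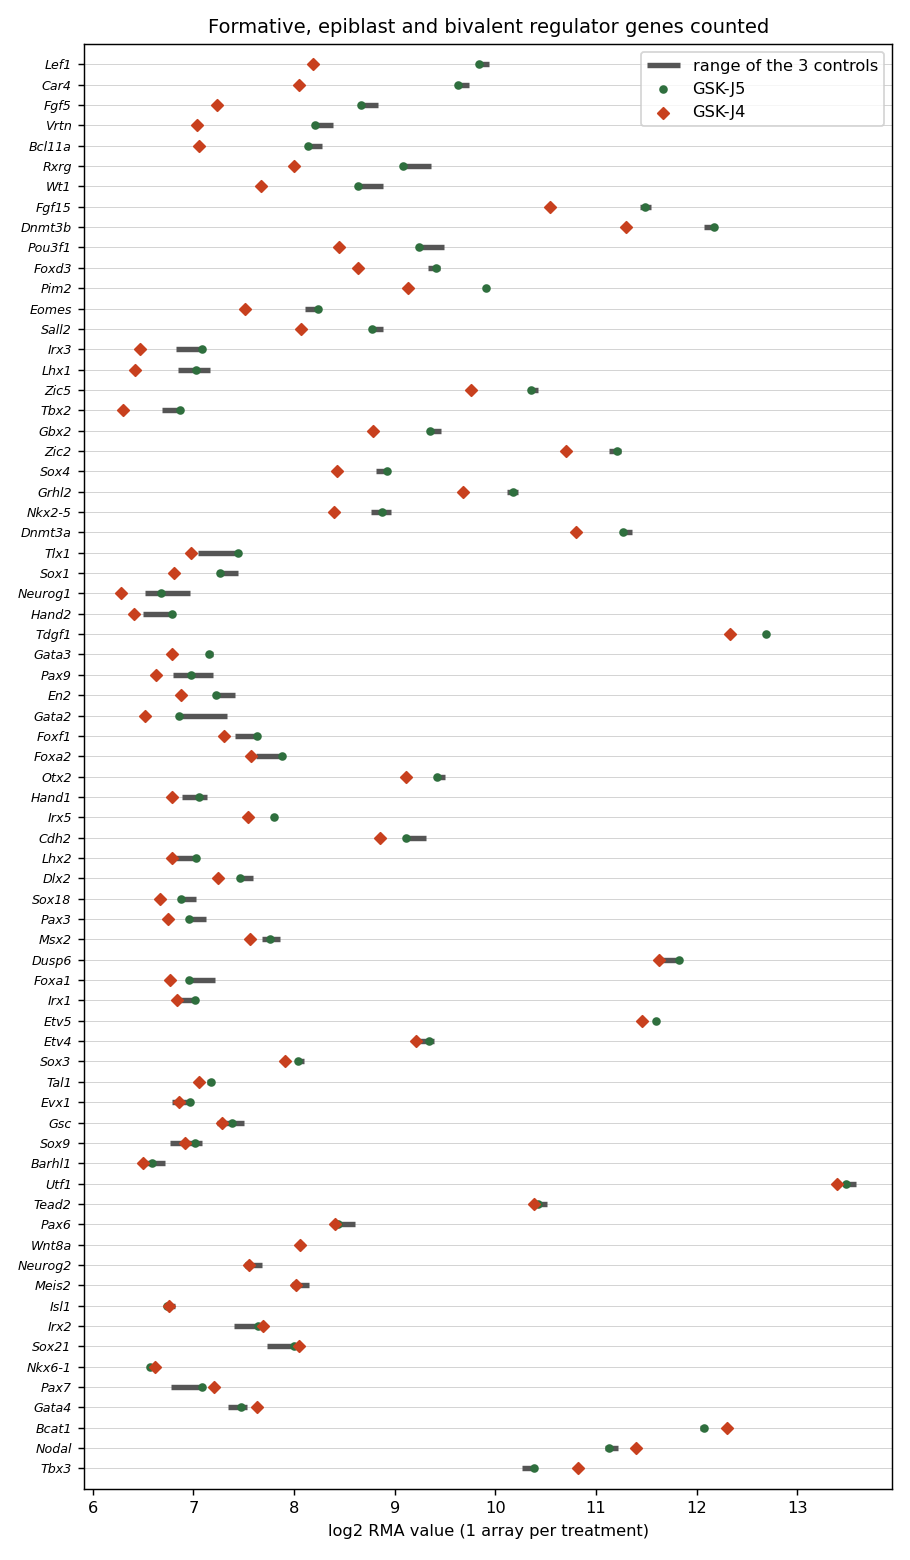
Log2 values of the counted formative, epiblast and bivalent genes, ordered by GSK-J4 minus GSK-J5, with the range of the 3 controls as a grey bar, GSK-J5 as a green circle and GSK-J4 as a red diamond. The diamond lies left of the bar in most rows, from Lef1 (8.19) down, and right of it for Tbx3 (10.82) and Nodal (11.40).

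Naive pluripotency genes did not share this shift as a list: 0 of 19 passed in either direction and the median was 0.01. Dppa3, a maternal and germ cell factor, differed by -0.53 and Gbx2, a homeobox factor, by -0.57. General pluripotency genes had 0 of 19 and a median of -0.05. The enzymes that GSK-J4 is labelled to inhibit differed by less than 1.5-fold. Kdm6a read 12.07, 12.07, 12.03 and 12.08 in medium, DMSO, GSK-J5 and GSK-J4, and its Y-linked relative Uty 10.46, 10.47, 10.39 and 10.54. Kdm6b, the other active demethylase, read 9.77, 9.84, 9.82 and 10.22, the GSK-J4 array being highest by 1.32-fold over GSK-J5. The KDM6 and PRC2 list had 0 of 15 called and a median of 0.01, which turned to -0.07 when arrays were centred on the genes counted. Its largest difference was in Phf19, a PRC2 accessory protein (-0.54). Among PRC1 genes Cbx2, which reads the lysine 27 mark, was lower (-0.65, 1 of 15). These are transcript levels, and neither the enzymes' activity nor the histone mark was measured.

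WNT genes held 4 lower of 34, beside 1.39% of all genes counted, and a median of -0.13. Besides Lef1 the lower ones were the receptors Fzd2 (-0.85) and Fzd8 (-0.84) and the target Myc (-0.70). Fzd2 read 8.15, 7.96, 8.24 and 7.39 in medium, DMSO, GSK-J5 and GSK-J4, lowest in GSK-J4, with a difference from DMSO of -0.57. Myb, a transcription factor of dividing progenitors, differed by -0.92, but a second probe set above the filter level differed by -0.25. Its relative Mybl1 was higher, by 0.84. The MYC and MYB list held 1 higher and 2 lower of 16, with a median of -0.105. Among 23 genes of G1 cyclins, their kinases and inhibitors 3 were higher and 1 lower, with a median of -0.11. The lower one was Ccnd2, cyclin D2 (-0.90). The retinoblastoma genes Rb1 (0.98) and Rbl2 (0.85), which hold cells in G1, were higher, as was Cdkn1a. G2 and mitosis genes had 0 of 31 past the rule, but GSK-J4 was below all controls for 27 of them, with a median of -0.16. The mitotic kinase Plk1 differed most, at -0.50, and the kinase Aurkb differed by -0.40. Over all genes counted GSK-J4 was below all controls for 4729 of 13314.

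Hypoxia and glycolysis genes split, with 2 higher and 4 lower of 23, beside 3.28% and 1.39% of all genes counted. Vegfa, the vascular growth factor, read 8.84, 8.84, 9.11 and 10.22, highest in GSK-J4, and the other higher gene was Ddit4. Egln3, an oxygen-sensing prolyl hydroxylase, read 10.42, 10.23, 10.44 and 9.34, and Slc16a3, a lactate exporter, 10.70, 10.57, 10.63 and 9.56. Both were lowest in GSK-J4, 2.14-fold and 2.10-fold below GSK-J5. Bnip3, a mitophagy receptor, differed by -0.84 and Tpi1, a glycolytic enzyme, by -0.73. Sterol synthesis genes had 1 of 16 lower, Fdps (-0.59, or -0.58 against medium), with a median of -0.29 and GSK-J4 below all controls for 14. Lysosome and autophagy genes lay on the other side, with Hexa, a lysosomal hexosaminidase (0.62, or 0.54 when arrays were centred on the genes counted), the 1 higher gene of 28, a median of 0.20 and GSK-J4 above all controls for 23. Across all genes counted it was above all controls for 5063.

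Of 10 mitochondrially encoded genes ND3, a subunit of respiratory complex I, was lower, reading 13.56, 13.60, 13.65 and 12.06 in medium, DMSO, GSK-J5 and GSK-J4. The other 9 ranged from -0.44 to 0.03. The median of the 10 was -0.235, and GSK-J4 was below all controls for 9 of the 10, beside 4729 of 13314 genes counted. Mitochondrial genes are transcribed together as long shared RNAs. Germ line and meiosis genes held 3 higher of 17, beside 3.28% of all genes counted, with a median of 0.22. The higher ones were Sycp1 (1.06), Smc1b (0.68) and Hormad1 (0.64, or 0.40 against DMSO), all of meiotic chromosomes. Sycp1 read 7.18, 7.37, 6.69 and 7.75, and since its GSK-J5 array was the lowest of the 4, GSK-J4 lay 0.38 above DMSO. Long noncoding RNAs had 4 higher and 1 lower of 18, with Trp53cor1, a p53-induced RNA, at 0.86 and Malat1 at 0.62 (0.50 against DMSO and against medium), while Rny3, a Y RNA, was lower (-1.40). Rny3 had its highest control in GSK-J5, and its difference from medium was -0.87. The 13 control housekeeping genes had 0 called and a median of -0.04, and the 12 heat shock genes 0 called and a median of 0.01. The small medians of the naive pluripotency, heat shock, damage signalling and unfolded protein lists, like that of the KDM6 and PRC2 list, changed sign under at least 1 alternative, so they carry no direction.

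**Figure D5:**
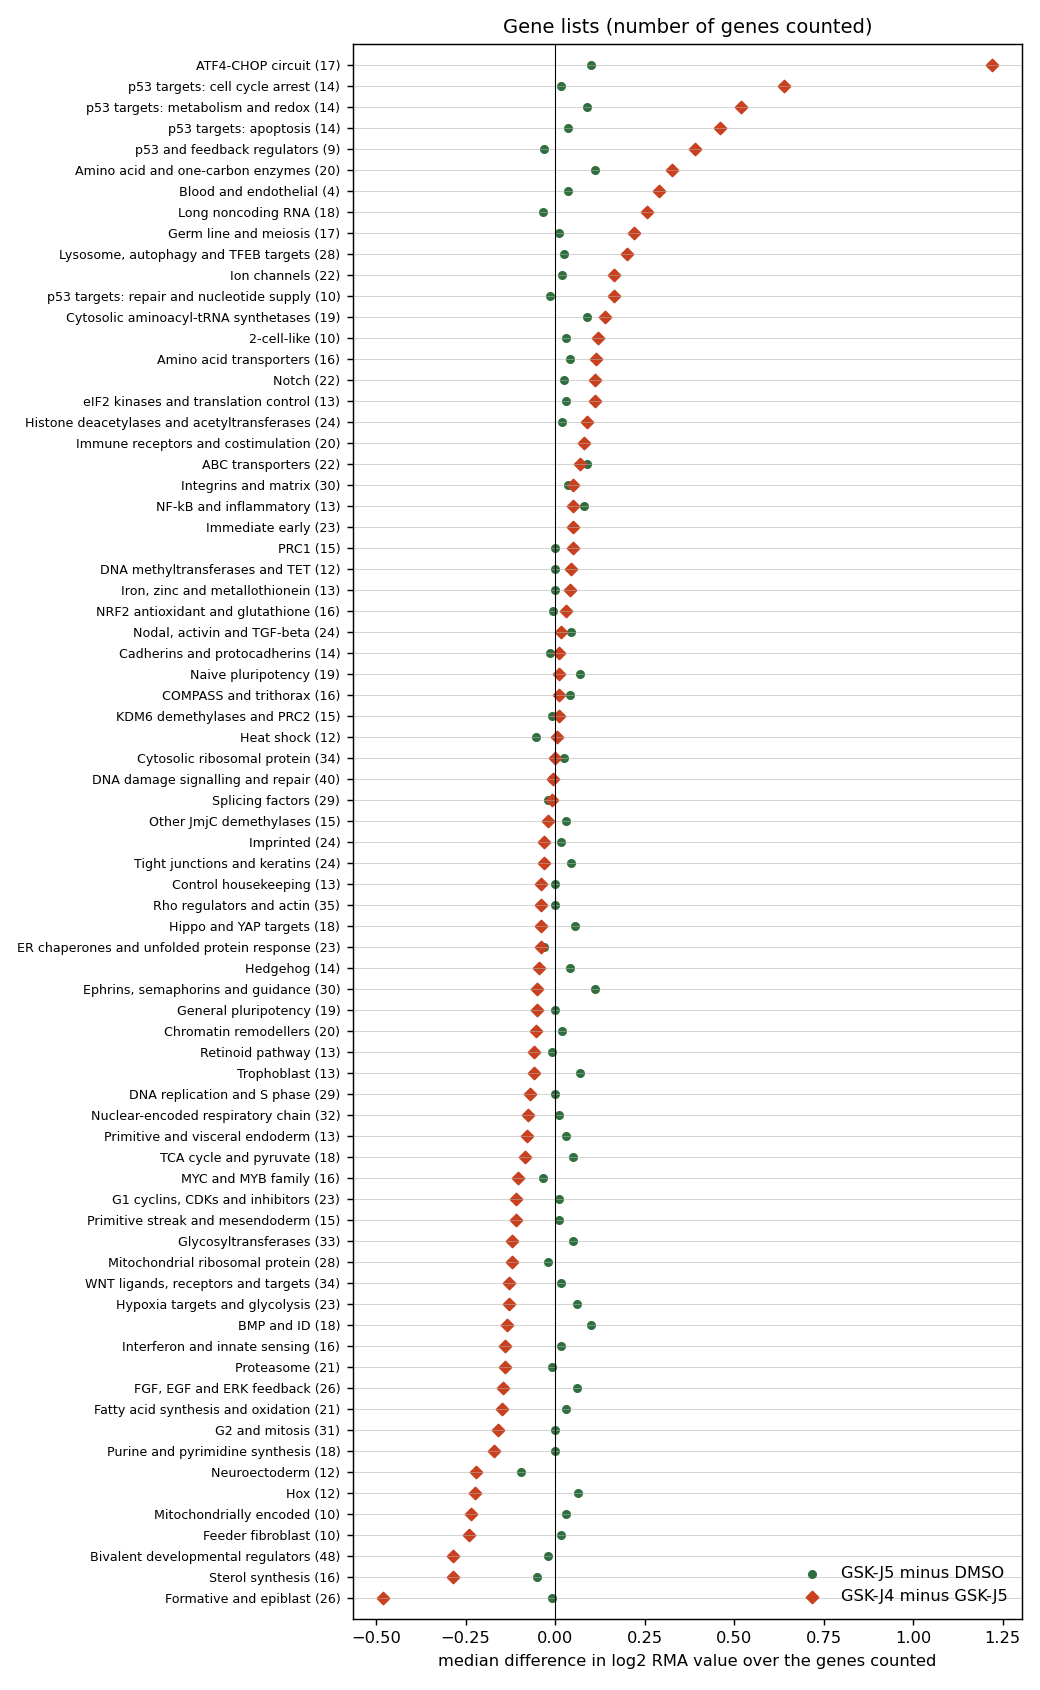
Median log2 difference over the counted genes of each of the 74 lists (number of genes in brackets), GSK-J4 minus GSK-J5 as red diamonds and GSK-J5 minus DMSO as green circles, which share the GSK-J5 array. The diamonds run from -0.48 (formative and epiblast) to 1.22 (ATF4-CHOP circuit), and 36 of the 74 lie within 0.10 of 0.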

How the data were processed

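The deposited values are log2 expression. Per the submitters' processing notes, the authors ran RMA, using version 1.2.1.20 of the Affymetrix Expression Console. RMA forces a common intensity distribution on the arrays, so a shift shared by most genes would be removed. That the values are in base 2 was inferred from their range, 2.20 to 14.48. Depth does not apply to arrays, and their number limits the precision. Array medians over 41345 probe sets were 6.63 to 6.65.

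Names came from the platform annotation: 23521 probe sets had 1 symbol, 1814 several and 16010 none, and 0 symbols changed against RefSeq (GRCm38.p6). The brightest probe set was taken for the 1082 genes with several. Genes whose mean of the 4 arrays reached the 40th percentile, 6.585, ties included, were counted. Differences are subtractions of 2 arrays (pandas 2.3.3), read by a 1.5-fold rule of size with no test, and folds are powers of 2 of them. The script was tested on simulated data. The 74 gene lists, the members and the rules were chosen with earlier results of these data known. Named genes are the 25 highest and 25 lowest (transcripts without a gene name passed over), Kdm6a, Kdm6b, Uty, and up to 4 per direction from each list, or the 2 largest where none passed. Alternatives were other filters, scalings, probe set rules, folds and reference arrays.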

Additional observations from a re-analysis of the deposited data

Results flagged for a closer look

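Probe sets that the comparisons left out also differed between GSK-J4 and GSK-J5. Of the probe sets above the filter level with several gene symbols, 46 passed 1.5-fold, 34 higher and 12 lower (4.32%), against 3 higher and 15 lower between GSK-J5 and DMSO. Among those with no gene symbol 770 passed (600 higher, 170 lower), which is 12.9% of those above the filter level, against 5.21%, 6.90% and 6.10% between the pairs of controls. Their identity was not analysed here.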

How the results depend on the processing

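Of 131 named genes past 1.5-fold, none changed sign under the alternatives run, but 25 lost their call under at least 1 of them: 16 against DMSO, 15 against medium, 12 against the mean of the controls, 10 centred on the genes counted, 8 under loess, 7 after quantile normalization and 1, Bcl11a, with the median over probe sets (-0.505). The stricter filter left no gene of the Hox and of the blood and endothelial lists. With a 2-fold rule 110 genes were higher and 19 lower. Without a filter 443 were lower, with a filter at the 60th percentile 257 were higher and 101 lower, and with arrays centred on the genes counted, an alternative added after the data were seen, 324 were lower. The ATF4-CHOP median was 1.10 without the filter and with the stricter one, 1.53 against DMSO, 1.43 against medium and 1.45 against the mean of the controls. The bivalent median was -0.22 without a filter, -0.54 with the stricter one, -0.26 with a filter on the 2 compound arrays and with the median over probe sets, -0.24 under loess, -0.25 against medium, -0.26 against the mean of the controls and -0.365 centred on the genes counted. That centring also gave 0.56 for p53 cell cycle arrest (0.75 with the stricter filter), 0.38 for apoptosis, 0.31 for feedback (0.29 against DMSO), 0.085 for repair (0.10 after quantile normalization, 0.13 under loess), -0.56 for formative genes and -0.07 for KDM6 and PRC2, which was 0.023 against the mean of the controls.

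Of the 74 list medians 26 changed sign under at least 1 alternative, 24 of them lists with a main median within 0.10 of 0. The others were blood and endothelial genes, 0.29 over 4 genes, and interferon genes, -0.14. Those whose main median exceeded the medians between controls were blood and endothelial (-0.02 without a filter), retinoid (0.075 with the stricter filter, 0.017 under loess), interferon (0.025 with the stricter filter), NRF2 (-0.05), iron and zinc (-0.04), immediate early (-0.03) and integrins (-0.03) centred on the genes counted, integrins (-0.0006 after quantile normalization), iron and zinc (-0.07 against medium, -0.01 against the mean of the controls) and primitive endoderm (0.07 and 0.0033 likewise). The cause was not tested. No paired analysis was possible because each treatment has 1 array.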

Other observations

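Families of related symbols, grouped after the values were seen, held further differences between GSK-J4 and GSK-J5, given here as values only. Those described were picked for their calls. Other families lay near the 4.67% of all genes counted that were called, such as 177 Tmem genes (5.08%), or had none, such as 29 Ube2 genes. Of 8 counted purinergic receptor genes, which sense extracellular nucleotides, 5 were higher and 0 lower, beside 3.28% and 1.39% of all genes counted. One of these, P2rx3 (6.36, 6.43, 6.63 and 7.50), was counted through its GSK-J4 value, since its controls averaged under the filter level. P2rx7, an ATP-gated channel, read 8.33, 8.26, 8.27 and 9.53 in medium, DMSO, GSK-J5 and GSK-J4, and P2rx4, P2rx3, P2ry6 and P2ry2 differed by 0.86, 0.87, 0.92 and 0.60. The Tribbles pseudokinases went apart: Trib3 was higher by 2.02, while Trib1 (8.73, 8.53, 8.67 and 7.98) and Trib2 (8.04, 7.91, 7.95 and 7.34) were lower.

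Of 34 counted genes with a Cd symbol 4 were higher and 1 lower. For this family and those that follow, the shares over all genes counted were 3.28% higher and 1.39% lower. Besides Cd80 the higher ones were Cd59a (1.09), Cd59b (1.01) and Cd55 (0.99), all regulators of complement on the cell surface, and the lower one was Cd96 (-0.65). Other complement regulators were not counted as a list. Cd59a and Cd59b are close copies and could share probes. Of 14 counted cytochrome oxidase subunit genes, Cox6a2 (7.22, 7.12, 7.18 and 8.25) and Cox6b2 (0.76) were higher and Cox7a1 (10.07, 10.00, 10.10 and 9.51) was lower. All 3 are tissue-restricted isoforms, so that class did not differ in 1 direction. Of 9 carbonic anhydrases 3 were lower, Car4 (-1.58), Car2 (-0.71) and Car3 (-0.70). Among 137 microRNA genes 11 were higher and 8 lower, but 4, 5 and 1 were called between the pairs of controls, and the SD of their differences was 0.398 against 0.243 for GSK-J5 minus DMSO.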
